A study of Mus musculus with 6 samples.

Results

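SR proteins and hnRNPs are the main families of RNA-binding proteins that decide which exons of a transcript are kept. SR proteins carry arginine-serine repeats and mostly promote the use of the exons they bind. Heterogeneous nuclear ribonucleoproteins (hnRNPs) coat nascent transcripts and often block splice sites, and the polypyrimidine tract binding (PTB) proteins, Rbfox2 and the Tra2 proteins act beside them. The genes described here are the protein-coding genes of the deposited count table whose symbols begin with Srsf and a digit or with Hnrnp, together with Ptbp1, Ptbp2, Ptbp3, Rbfox2, Tra2a and Tra2b. They come to 36 of 16627 genes: 10 SR protein genes, 2 Tra2 genes, 20 hnRNP genes, 3 PTB genes and Rbfox2. Srsf12 has such a name in the annotation but was not among the genes analysed here, and 2 hnRNP pseudogenes matched the names and were left out.

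The libraries came from the inguinal white adipose tissue (iWAT) of mice kept at 4 °C for 6 hours, a short cold exposure that starts the beiging of this fat. The 3 Celf1 AKO libraries came from Celf1 fl/fl mice that lacked Celf1 in adipocytes, and the 3 Flox control libraries from fl/fl littermates. No group without cold was analysed here, so values are differences between genotypes in the cold. The labels used here give no age, sex or Cre driver, and they do not state that each library is a different mouse, so the p-values rest on the spread between libraries only. The tissue also holds cells other than adipocytes, which keep the gene, and in whole tissue fewer cells of a type and less RNA per cell cannot be told apart.

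CELF1 is itself a splicing and mRNA decay regulator that binds GU-rich RNA. In CPM (counts divided by the TMM-scaled library size), Celf1 (ENSMUSG00000005506; chr2:90940382-91019497, plus strand, GRCm38) stood at 52.5, 49.8 and 63.0 in Celf1 AKO 1, 2 and 3, against 125.5, 113.7 and 144.0 in Flox control 1, 2 and 3. Every knockout library was below every control, with a log2 fold change of -1.21 (95% interval -1.54 to -0.89). The adjusted p of edgeR's quasi-likelihood test was 0.122, above the threshold of 0.05, and it was 0.0174 without Celf1 AKO 3 and 0.697 without Flox control 3. All fold changes below are Celf1 AKO over Flox control, and adjusted p-values are taken over all genes tested. Celf1 AKO 3 correlated more closely with each control (0.9827 to 0.9864, log2 CPM across genes) than with Celf1 AKO 1 and 2 (0.9775 and 0.9764). It also held 1038.8 CPM of Acta1, the skeletal muscle actin gene, while Celf1 AKO 1 and 2 held 23.1 and 70.6 CPM and the controls 33.5 to 75.2 CPM. For some of the members below, values without this library are also given.

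None of the 36 splicing regulators passed the test of Celf1 AKO against Flox control. The lowest count of any member in any library was 996 (Srsf9) and the highest 44387 (Hnrnpa2b1), and all 36 passed the filter on low counts. The median log2 fold change over the 36 genes was 0.08, beside -0.02 over all tested genes, and single genes ran from -0.48 (Rbfox2) to 0.52 (Ptbp2). The absolute log2 fold change was under 0.2 for 26 of the 36. By edgeR, 0 members were called at an adjusted p under 0.05, where the whole table of 16366 tested genes held 2 calls (0.0122%). DESeq2, which called 2.97% of all genes, called 0 members too.

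At an unadjusted p under 0.05, 3 members were higher in Celf1 AKO by edgeR (8.33% of the 36), namely Hnrnph3, Ptbp3 and Ptbp2, while 6.75% of all tested genes were. No member was lower at that level (0 of 36), while 6.17% of all tested genes were. For Hnrnph3, Ptbp3 and Srsf11 (8.33%) all Celf1 AKO libraries lay above all Flox control libraries, as they did for 7.81% of all tested genes. The opposite order held for 0 members and for 9.51% of all tested genes. The shares of higher members thus lay near those of the whole table.

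**Figure D1:**
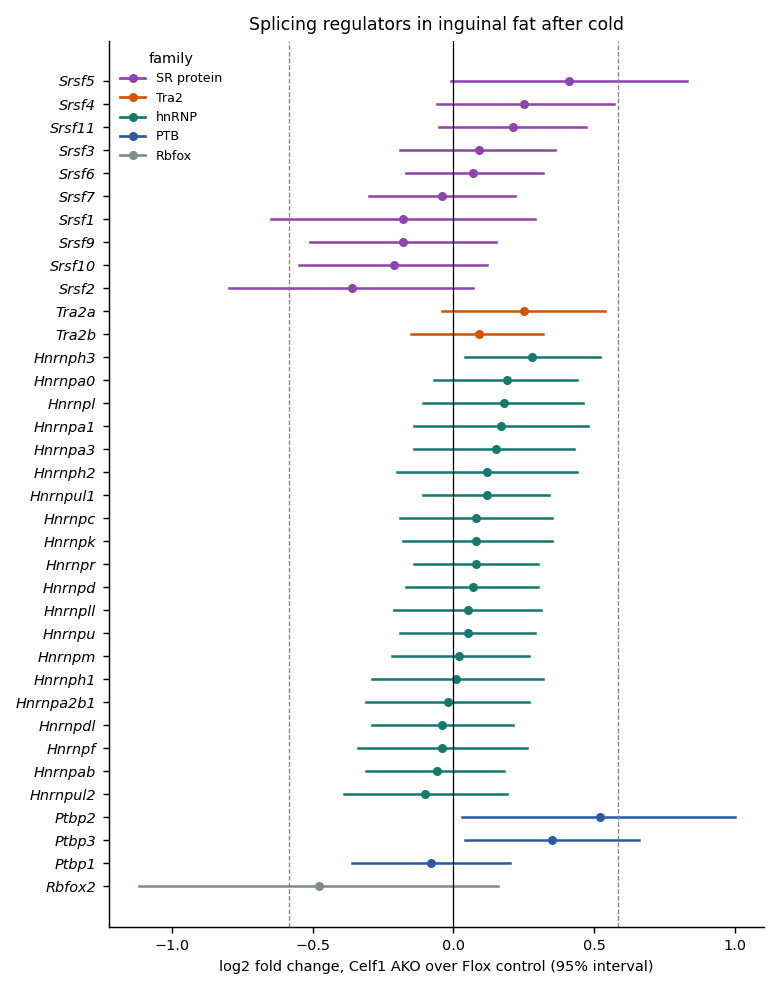
Log2 fold change (Celf1 AKO over Flox control) of the 36 splicing regulators, grouped by family, with 95% intervals from edgeR's fit; dashed lines mark 1.5-fold in either direction. The intervals of 30 genes, all 20 hnRNP genes among them, lie inside the dashed lines, and those of Ptbp2, Ptbp3, Srsf5, Srsf1, Srsf2 and Rbfox2 cross one.

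The intervals say how large a difference these libraries still allow. For 30 of 36 members (83.3%) the whole 95% interval lay within 1.5-fold in either direction. That was so for 34.1% of all tested genes, and for 62.1% of the 6767 genes whose mean FPKM reached that of the lowest member. The median width of the interval was 0.56 on the log2 scale for the members, 1.05 for all tested genes and 0.66 for the 6767. The spread between libraries of one group was also small, with a median SD of log2 CPM of 0.12 for the members, 0.21 for all tested genes and 0.17 for the 6767. Members whose interval reached past 1.5-fold were Ptbp2, Ptbp3, Srsf5, Srsf1, Srsf2 and Rbfox2.

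Summed over the 36 genes, the libraries held 5961.8, 5704.1 and 6116.1 CPM in Celf1 AKO 1, 2 and 3, and 5950.0, 5323.4 and 5683.7 CPM in Flox control 1, 2 and 3. The sums averaged 5927.4 ± 208 CPM in the Celf1 AKO group, against 5652.3 ± 315 CPM in the Flox control group (n = 3 each, SD), and the groups overlapped. Flox control 2 gave the lowest value of 15 members and the highest of 0. Celf1 AKO 3 gave the highest value of 8 members and the lowest of 0. Flox control 3 gave the highest of 10 and the lowest of 6, and Celf1 AKO 1 the highest of 9 and the lowest of 5.

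Levels were compared between genes on the length-scaled FPKM values (fragments scaled to gene length and library size). These values use the same length of a gene in every library. How that length was set is not given, so the order of genes depends on it. Hnrnpk, which binds C-rich RNA, was highest at a mean of 174.1 FPKM over the 6 libraries, above 98.0% of the table, and Srsf4 was lowest at 5.98 FPKM, above 59.3%. Srsf5 followed at 168.5, Hnrnpa2b1 at 155.6 and Hnrnpa1 at 103.0 FPKM. Hnrnpk, Srsf5 and Hnrnpa2b1 changed places between libraries, whereas Hnrnpa1 stood directly after them in all 6. Among the SR genes Srsf5 stood first, then Srsf2 at 70.5 and Srsf6 at 61.3 FPKM, and Srsf1 and Srsf3 were level at 38.9 and 39.0 FPKM. In the PTB family the order of levels in all 6 libraries was Ptbp1, Ptbp3, Ptbp2, with means of 30.9, 15.8 and 7.8 FPKM. Ptbp1 is the widely expressed form and Ptbp2 the one known from neurons.

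**Figure D2:**
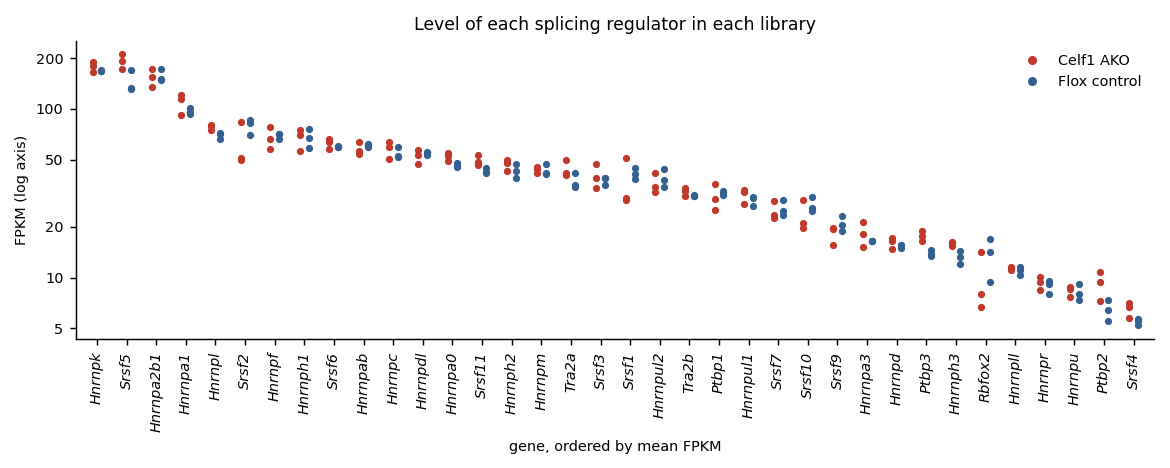
FPKM (log axis) of each splicing regulator in each library, genes ordered by mean FPKM, with the 3 Celf1 AKO libraries left of the 3 Flox control libraries. The genes span 5.98 to 174.1 FPKM on average, from Srsf4 to Hnrnpk.

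CELF1 is known to bind GU-rich elements in 3′ UTRs, so these were searched in 1 GENCODE M21 transcript per gene, on the transcript strand only and with DNA letters. The 11-base GU-rich element was in the 3′ UTR of 0 of 36 members and of 522 of 13843 tested protein-coding genes (3.8%). Its 7-base core, TGTTTGT, was in 13 of 36 members (36.1%) and in 26.7% of those genes. Members had longer 3′ UTRs, with a median of 1231.5 bases against 1014, and in the first 500 bases the core was in 6 of 31 members (19.4%) and 10.9% of 9817 genes with a 3′ UTR of that length. A run of GU repeats was in Hnrnpd and Hnrnpr (5.6%), while 7.6% of all those genes held one. A match only describes these letters, and no binding was measured.
The core stood once in 7 of the members described singly below, and these sites are shown with 11 bases of flank on each side, 5′ to 3′ on the transcript strand, GRCm38, the core in capitals.
Srsf1 (chr11:88049899-88049927, plus strand): gatgttgggggTGTTTGTggttatcttac
Srsf3 (chr17:29042047-29042075, plus strand): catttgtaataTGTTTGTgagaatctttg
Srsf5 (chr12:80950455-80950483, plus strand): agtaaagcagcTGTTTGTtattgataata
Srsf11 (chr3:158011572-158011600, minus strand): tttaatggtctTGTTTGTtgacatgacaa
Tra2b (chr16:22246791-22246819, minus strand): agctgggatatTGTTTGTggacaatattt
Ptbp2 (chr3:119719580-119719608, minus strand): aagtaatgtctTGTTTGTggctgaatatt
Rbfox2 (chr15:77081269-77081297, minus strand): tgtagtgaaaaTGTTTGTctggatgttcc
The site lies 48 bases into the 3′ UTR of Tra2b, 304 into that of Srsf1, 420 into that of Srsf11 and 488 into that of Srsf5. In Srsf3 it begins at base 647, in Ptbp2 at base 731 and in Rbfox2 at base 2876. The 13 members with the core had a median log2 fold change of 0.08, ranging from -0.48 to 0.52, and the 23 without it had 0.05, ranging from -0.36 to 0.35. Rbfox2 and Ptbp2, at the 2 ends of the members' fold changes, both hold the core, while Srsf2 at -0.36 and Ptbp3 at 0.35 do not. None of these genes was called with all 6 libraries, and a link between the core and the fold change was not tested.

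The 10 SR protein genes split evenly by sign, with 5 positive and 5 negative log2 fold changes and a median of 0.02. None passed the test and 0 had an unadjusted p under 0.05, and the lowest adjusted p by edgeR's quasi-likelihood test was 0.401. Srsf5 had 733.8, 706.3 and 581.5 CPM in Celf1 AKO 1, 2 and 3, against 633.4, 440.0 and 449.8 CPM in Flox control 1, 2 and 3. Flox control 1 lay inside the knockout range, so the groups overlapped. Srsf5 averaged 673.9 ± 81.2 CPM in the Celf1 AKO group, against 507.7 ± 109 CPM in the Flox control group (n = 3 each, SD), a log2 fold change of 0.41 (SE 0.18) with an edgeR adjusted p of 0.401. On the deposited FPKM, which do not carry TMM factors, the groups did not overlap, at 211.0, 191.5 and 173.5 FPKM in Celf1 AKO and 169.9, 131.7 and 133.3 FPKM in Flox control. Its log2 fold change was 0.60 without Flox control 1 and 0.50 without Celf1 AKO 3. Over all single libraries left out it ran from 0.31 to 0.60, with edgeR adjusted p-values of 0.170 to 0.861.

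Srsf2, a classical SR protein of nuclear speckles, had the lowest fold change of its family. It stood at 97.4, 99.8 and 153.0 CPM in Celf1 AKO 1, 2 and 3, against 142.3, 149.9 and 158.7 CPM in Flox control 1, 2 and 3. Celf1 AKO 3 lay among the controls, and the other knockout libraries lay below all of them. The log2 fold change was -0.36 (SE 0.19, 95% interval -0.80 to 0.07), and the edgeR adjusted p was 0.452. Without Celf1 AKO 3, edgeR gave -0.61 (SE 0.11) and an adjusted p of 0.0414, so that Srsf2 was then called, as the 1 member among 36 (2.78%), while 3.19% of all tested genes were called in that fit. Over the other single libraries left out, the edgeR adjusted p for Srsf2 reached 0.864. Exons of Srsf2 share 460 bases with Mettl23 and 288 with Mfsd11 on the opposite strand, and without a stated strand setting reads there cannot be assigned.

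Srsf1, the founding SR protein that acts through exonic enhancers, likewise had 1 knockout library apart from the other two. It measured 155.6, 167.5 and 262.5 CPM in Celf1 AKO 1, 2 and 3, against 220.1, 211.7 and 232.8 CPM in Flox control 1, 2 and 3. Celf1 AKO 3 was the highest of all 6 libraries and the other knockout libraries the lowest. The log2 fold change was -0.18 (SE 0.20, edgeR adjusted p = 0.728). Without Celf1 AKO 3 it was -0.46, with an edgeR adjusted p of 0.081. It was -0.0059 without Celf1 AKO 1 (edgeR adjusted p = 0.997) and -0.08 without Celf1 AKO 2 (edgeR adjusted p = 0.930).

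Srsf3, the smallest SR protein, which also takes part in mRNA export, had 155.4, 144.2 and 180.5 CPM in Celf1 AKO 1, 2 and 3, against 151.9, 149.6 and 151.0 CPM in Flox control 1, 2 and 3. The controls lay inside the range of the knockout libraries, and the log2 fold change was 0.09 (95% interval -0.19 to 0.36, edgeR adjusted p = 0.792). Without Celf1 AKO 3 it was -0.01.

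Srsf11 stood at 166.0, 153.0 and 144.6 CPM in Celf1 AKO 1, 2 and 3, against 141.3, 124.5 and 134.9 CPM in Flox control 1, 2 and 3. The groups did not overlap, and the log2 fold change was 0.21 (SE 0.11, edgeR adjusted p = 0.461). Srsf4 was low, at 22.0, 18.8 and 19.9 CPM in Celf1 AKO 1, 2 and 3, against 18.9, 16.4 and 15.6 CPM in Flox control 1, 2 and 3. The groups met at 18.8 and 18.9 CPM, and the log2 fold change was 0.25 (SE 0.14, edgeR adjusted p = 0.467). Srsf4 shares 1532 exonic bases with Gm12992 on the opposite strand. The other SR genes, Srsf6, Srsf7, Srsf9 and Srsf10, had log2 fold changes of 0.07, -0.04, -0.18 and -0.21 and edgeR adjusted p-values of 0.565 to 0.906. Srsf10 was at -0.35 without Celf1 AKO 3 (edgeR adjusted p = 0.149), and ran from -0.35 to -0.11 over all single libraries left out.

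**Figure D3:**
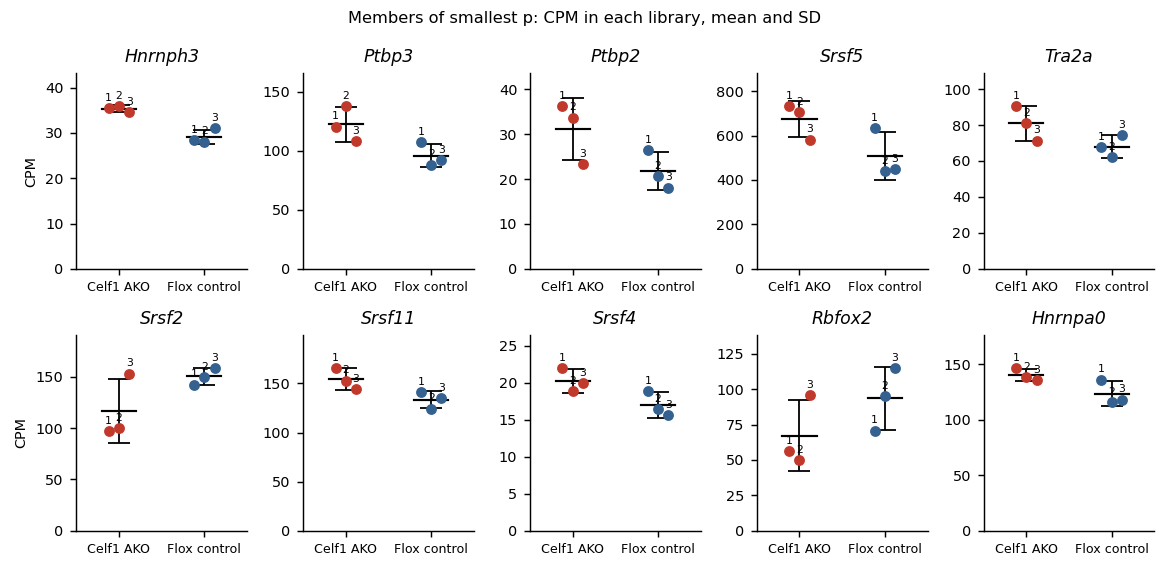
CPM in each library for the 10 splicing regulators of smallest p, with Celf1 AKO left of Flox control; numbers mark the replicate, and lines give the mean with its SD (n = 3). Hnrnph3, Ptbp3 and Srsf11 do not overlap between the groups, and in Srsf2 and Rbfox2 the third Celf1 AKO library lies among the controls.

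The Tra2 proteins are SR-like activators that bind GA-rich exonic enhancers. Tra2a had 90.7, 81.0 and 71.3 CPM in Celf1 AKO 1, 2 and 3, against 67.9, 62.0 and 74.3 CPM in Flox control 1, 2 and 3. Flox control 3 lay above Celf1 AKO 3, so the groups overlapped, and the log2 fold change was 0.25 (SE 0.13, edgeR adjusted p = 0.445). Leaving out Celf1 AKO 3 gave 0.33, with an unadjusted p of 0.0297 and an adjusted p of 0.163 by edgeR. Over all single libraries left out, Tra2a ran from 0.19 to 0.33. Tra2b had 116.0, 109.6 and 106.3 CPM in Celf1 AKO 1, 2 and 3, against 111.0, 100.5 and 100.9 CPM in Flox control 1, 2 and 3. The groups overlapped there too, with a log2 fold change of 0.09 (95% interval -0.15 to 0.32, edgeR adjusted p = 0.740).

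The 20 hnRNP genes lay in a narrow range, with log2 fold changes from -0.10 to 0.28, a median of 0.07, and 15 of the 20 positive. All 20 intervals lay within 1.5-fold, none of the 20 passed the test, and 1 had an unadjusted p under 0.05. Hnrnph3, a member of the G-rich binding H/F group, had 35.5, 36.0 and 34.6 CPM in Celf1 AKO 1, 2 and 3, against 28.4, 28.1 and 31.0 CPM in Flox control 1, 2 and 3. The knockout libraries lay close together and all above the controls. Hnrnph3 averaged 35.4 ± 0.736 CPM in the Celf1 AKO group, against 29.1 ± 1.59 CPM in the Flox control group (n = 3 each, SD), a 1.21-fold difference with a log2 fold change of 0.28 (95% interval 0.04 to 0.52). Its unadjusted p of 0.0264 was the smallest of the 36 and its edgeR adjusted p was 0.335. With single libraries left out the log2 fold change stayed between 0.25 and 0.32. Hnrnph3 shares 115 exonic bases with Rufy2 on the opposite strand.

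Hnrnpa0, a small A/B-type hnRNP, had 147.0, 138.9 and 136.0 CPM in Celf1 AKO 1, 2 and 3, against 136.4, 116.3 and 118.3 CPM in Flox control 1, 2 and 3. Flox control 1 lay just above Celf1 AKO 3, and the log2 fold change was 0.19 (SE 0.11, edgeR adjusted p = 0.510). Hnrnpa1, a well-studied splicing silencer, had 230.8, 186.0 and 212.1 CPM in Celf1 AKO 1, 2 and 3, against 207.8, 176.4 and 174.6 CPM in Flox control 1, 2 and 3. The ranges overlapped, and the log2 fold change was 0.17 (95% interval -0.14 to 0.48, edgeR adjusted p = 0.612).

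Hnrnpk, the member of highest mean FPKM, had 530.9, 523.2 and 545.7 CPM in Celf1 AKO 1, 2 and 3, against 537.5, 488.0 and 483.8 CPM in Flox control 1, 2 and 3. Flox control 1 lay within the knockout range, and the log2 fold change was 0.08 (95% interval -0.18 to 0.35, edgeR adjusted p = 0.789). Hnrnpa2b1, which also sorts RNAs for transport, had 628.9, 588.0 and 677.7 CPM in Celf1 AKO 1, 2 and 3, against 653.5, 588.6 and 679.3 CPM in Flox control 1, 2 and 3. The groups covered the same range, and the log2 fold change was -0.02 (95% interval -0.31 to 0.27, edgeR adjusted p = 0.961). The other 15 hnRNP genes had log2 fold changes between -0.10 (Hnrnpul2) and 0.18 (Hnrnpl), with edgeR adjusted p-values of 0.573 to 0.979.

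PTB proteins bind CU-rich tracts and mostly repress exons. Ptbp1 had 92.1, 84.6 and 108.8 CPM in Celf1 AKO 1, 2 and 3, against 104.2, 98.3 and 99.9 CPM in Flox control 1, 2 and 3. The controls lay inside the range of the knockout libraries, and the log2 fold change was -0.08 (95% interval -0.36 to 0.20, edgeR adjusted p = 0.805), and -0.19 without Celf1 AKO 3 (edgeR adjusted p = 0.337). Its paralogs had positive fold changes with an unadjusted p under 0.05, though neither passed the adjusted threshold.

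Ptbp3 had 120.4, 137.9 and 108.2 CPM in Celf1 AKO 1, 2 and 3, against 107.3, 88.1 and 92.2 CPM in Flox control 1, 2 and 3. The groups did not overlap, but Celf1 AKO 3 and Flox control 1 were within 1 CPM. Ptbp3 averaged 122.2 ± 14.9 CPM in the Celf1 AKO group, against 95.9 ± 10.1 CPM in the Flox control group (n = 3 each, SD), a log2 fold change of 0.35 (95% interval 0.04 to 0.66) with an unadjusted p of 0.0312 and an edgeR adjusted p of 0.342. Ptbp2 had 36.3, 33.7 and 23.4 CPM in Celf1 AKO 1, 2 and 3, against 26.5, 20.7 and 18.1 CPM in Flox control 1, 2 and 3. Celf1 AKO 3 lay below Flox control 1, so the groups overlapped. Ptbp2 averaged 31.1 ± 6.82 CPM in the Celf1 AKO group, against 21.7 ± 4.32 CPM in the Flox control group (n = 3 each, SD), the highest fold change of the 36 at 1.43-fold, with a log2 fold change of 0.52 (95% interval 0.03 to 1.0), an unadjusted p of 0.0388 and an adjusted p of 0.360 by edgeR. Without Celf1 AKO 3 the log2 fold change of Ptbp2 was 0.68 (adjusted p = 0.0749) and that of Ptbp3 0.43 (adjusted p = 0.116) in edgeR's fit. Over all single libraries left out, Ptbp2 ran from 0.40 to 0.68 and Ptbp3 from 0.25 to 0.44. Their edgeR adjusted p-values reached 0.836 and 0.819.

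Rbfox2 encodes a splicing factor that binds UGCAUG and is known to regulate exons by its position relative to them. It stood at 56.2, 49.9 and 95.7 CPM in Celf1 AKO 1, 2 and 3, against 70.7, 95.3 and 115.1 CPM in Flox control 1, 2 and 3. Celf1 AKO 3 lay above Flox control 1 and 2, and the spread within each group was wide. Rbfox2 averaged 67.3 ± 24.8 CPM in the Celf1 AKO group, against 93.7 ± 22.2 CPM in the Flox control group (n = 3 each, SD), with a log2 fold change of -0.48 (95% interval -1.12 to 0.16) and edgeR's adjusted p was 0.498. Without Celf1 AKO 3 it was -0.82 with an edgeR adjusted p of 0.0775. Over all single libraries left out, the log2 fold change of Rbfox2 ran from -0.82 to -0.30, with edgeR adjusted p-values up to 0.901.

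**Figure D4:**
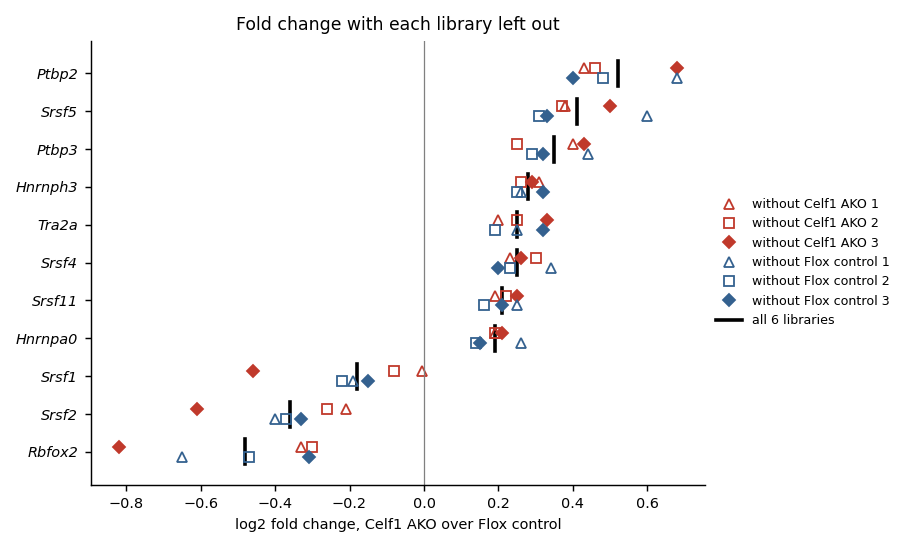
Log2 fold change (Celf1 AKO over Flox control) of the 10 splicing regulators of smallest p and Srsf1, with all 6 libraries (black line) and with each library left out (red, a Celf1 AKO library; blue, a Flox control library). Leaving out the third Celf1 AKO library (filled red diamonds) moves Rbfox2 to -0.82, Srsf2 to -0.61 and Srsf1 to -0.46, and Hnrnph3 stays between 0.25 and 0.32. Leaving out the first Celf1 AKO library moves Rbfox2 to -0.33, Srsf2 to -0.21 and Srsf1 to -0.0059.

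How many members had an unadjusted p under 0.05 depended on single libraries. By edgeR the count was 3 with all 6 libraries. Without Celf1 AKO 3 it was 9 (5 higher and 4 lower), or 25.0% of the 36, while 23.5% of all tested genes passed in that fit. Without Flox control 3 it was 1 (2.78%), beside 6.24% of all tested genes. It was 0 without Celf1 AKO 2 and without Flox control 2, beside 9.09% and 8.93% of all tested genes. The higher count without Celf1 AKO 3 thus lay near the share of the whole table. The members of smallest p without Celf1 AKO 3 were Srsf2, Ptbp2, Rbfox2 and Srsf1.

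Many of these genes are known to limit their own output by splicing in exons with premature stops, which send the transcript to nonsense-mediated decay. In GENCODE M21, 24 of the 36 members (66.7%) have a transcript annotated to nonsense-mediated decay, as do 29.6% of 6478 protein-coding genes at or above the lowest member's mean FPKM. They are 9 of 10 SR genes, 10 of 20 hnRNP genes, 3 of 3 PTB genes and both Tra2 genes. Members also have more annotated transcripts, at a median of 9 per gene against 5. A retained-intron transcript is annotated for 28 members (77.8%) and for 56.4% of all 14176 protein-coding genes of the table. The deposited values are given per gene, so shifts between productive and decay-bound isoforms were not measured here. How reads of each isoform were counted is not given.

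Some member counts share sequence with other loci of the table. For 14 members another gene of the table matched the transcript at 95% identity or more over at least 300 bases, and for 10 of them such a match lay elsewhere in the genome rather than in an overlapping gene. Hnrnpab, Hnrnpm, Srsf2 and Srsf4 matched only the gene they overlap, and for Hnrnpm that was March2 on the same strand, at 1149 bases. For Hnrnpa3 there were 9 copies elsewhere, which together averaged 32.4 CPM, or 36.0% of the level of Hnrnpa3 itself. For Hnrnpa1 the copies came to 8.18% of its level, for Hnrnpk to 7.83%, for Srsf5 to 3.74%, and for the other 6 to at most 3.0%. Counting could split reads between such loci, so the values of Hnrnpa3 and Hnrnpm are uncertain. Exons of 9 members overlap another gene of the table. On the opposite strand, Hnrnpab shares 809 exonic bases with Phykpl, Hnrnpu 804 with Cox20 and Hnrnpf 410 with 4933440N22Rik. Hnrnpk shares 330 with Rmi1, and Ptbp1 shares 295 with E130317F20Rik and 251 with Plppr3. Reads there cannot be assigned either without a stated strand setting.

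The genes that act around the SR and hnRNP proteins gave 0 calls by edgeR in any of the 6 lists, and DESeq2 called 1 gene, Khdrbs3. Their counts at an unadjusted p under 0.05 stand beside 6.75% of all tested genes higher and 6.17% lower in edgeR's fit. Of 12 genes for SR protein kinases, a phosphatase regulator and nuclear import, 8 had a negative log2 fold change (median -0.11), and 2 had an unadjusted p under 0.05, both lower in Celf1 AKO. Prpf4b, a kinase of spliceosome proteins, averaged 56.5 ± 5.22 CPM in the Celf1 AKO group, against 73.0 ± 6.65 CPM in the Flox control group (n = 3 each, SD; log2 fold change -0.37, edgeR adjusted p = 0.302). Ppp1r8, a nuclear inhibitor of protein phosphatase, averaged 24.0 ± 1.77 CPM in the Celf1 AKO group, against 30.8 ± 2.18 CPM in the Flox control group (n = 3 each, SD; -0.36, edgeR adjusted p = 0.303). Neither overlapped between the groups.

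Of 21 tested RS-domain coactivators, 11 were positive (median 0.0035), with 3 higher and 1 lower at an unadjusted p under 0.05. Sfswap, a regulator that autoregulates its own splicing in flies, averaged 42.0 ± 1.61 CPM in the Celf1 AKO group, against 32.9 ± 3.76 CPM in the Flox control group (n = 3 each, SD), with an edgeR adjusted p of 0.314. Srrm1 averaged 147.1 ± 5.96 CPM in the Celf1 AKO group, against 119.2 ± 10.3 CPM in the Flox control group (n = 3 each, SD), with an edgeR adjusted p of 0.333. Of 36 tested genes for snRNP proteins and other spliceosome factors, 22 were positive (median 0.06), and 1 had an unadjusted p under 0.05. That was Sf1, which recognises the branch point. It had 386.7, 359.5 and 335.2 CPM in Celf1 AKO 1, 2 and 3, against 300.7, 220.1 and 213.8 CPM in Flox control 1, 2 and 3. The groups did not overlap, and the log2 fold change was 0.56 (SE 0.16, edgeR adjusted p = 0.287). Prpf19, the next by p in that list, had a log2 fold change of -0.23 (edgeR adjusted p = 0.438).

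Of 42 tested other hnRNP-like regulators, 20 were positive and 22 negative (median -0.02), with 1 higher and 2 lower at an unadjusted p under 0.05. Khdrbs3, a STAR family RNA-binding protein, averaged 10.8 ± 1.65 CPM in the Celf1 AKO group, against 16.5 ± 0.694 CPM in the Flox control group (n = 3 each, SD; log2 fold change -0.62), with an adjusted p of 0.256 by edgeR and 0.020 by DESeq2. Rbpms2 averaged 37.9 ± 6.73 CPM in the Celf1 AKO group, against 53.7 ± 2.13 CPM in the Flox control group (n = 3 each, SD; -0.50, edgeR adjusted p = 0.279). The cold-inducible RNA-binding protein genes were Cirbp and Rbm3, of which Cirbp had an unadjusted p under 0.05. Cirbp averaged 75.6 ± 23.6 CPM in the Celf1 AKO group, against 43.1 ± 12.9 CPM in the Flox control group (n = 3 each, SD). Celf1 AKO 3 lay below Flox control 1, and the log2 fold change was 0.81 (SE 0.29, edgeR adjusted p = 0.333), and 1.05 without Celf1 AKO 3 (edgeR adjusted p = 0.066). Over all single libraries left out, Cirbp ran from 0.60 to 1.05, with edgeR adjusted p-values up to 0.811. Rbm3 averaged 157.6 ± 19.1 CPM in the Celf1 AKO group, against 152.0 ± 22.8 CPM in the Flox control group (n = 3 each, SD; 0.05, edgeR adjusted p = 0.914). The 15 genes of nonsense-mediated decay and the exon junction complex had a median of 0.05 and none with an unadjusted p under 0.05. The smallest p-values among them were those of Smg5 (log2 fold change -0.33, edgeR adjusted p = 0.484, and 0.0426 without Celf1 AKO 3) and Magohb (0.36, edgeR adjusted p = 0.521). With other libraries left out, the edgeR adjusted p of Smg5 reached 0.867.

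**Figure D5:**
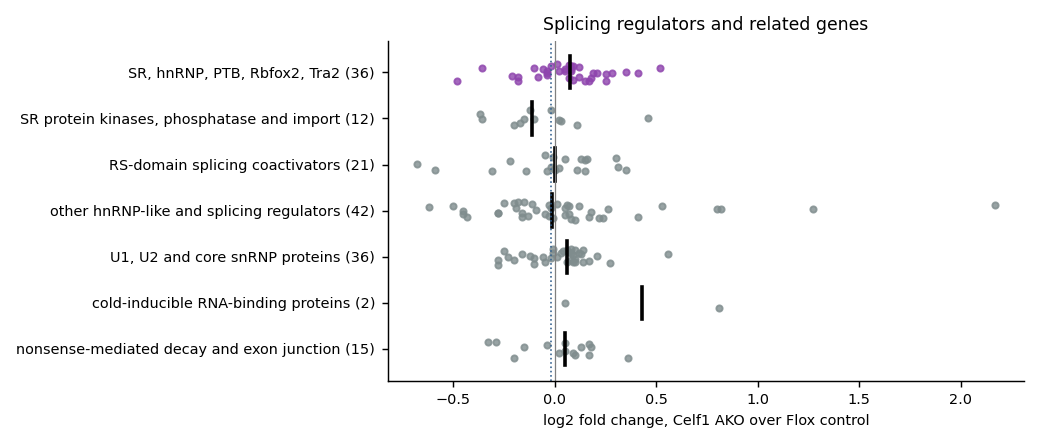
Log2 fold change (Celf1 AKO over Flox control) of the 36 splicing regulators and of 6 lists of related genes; each point is a gene, the black bar is the list's median and the dotted line the median of all tested genes (-0.02). The medians run from -0.11 for the kinase list to 0.06 for the snRNP list and 0.08 for the splicing regulators, with 0.43 for the 2 cold-inducible genes.

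Summed levels of endothelial and Schwann cell markers did not overlap between the groups, and the part of cell type markers in the values above was not tested. The 8 adipocyte markers were high in every library, summing to 32359.2 to 41514.2 CPM in Celf1 AKO, against 37867.8 to 42311.7 CPM in Flox control. Of these 8, 2 were positive, and 1 was lower at an unadjusted p under 0.05 by edgeR. The 12 endothelial markers summed to 1273.5 to 1534.8 CPM in Celf1 AKO, against 759.3 to 1137.5 CPM in Flox control, with 11 of 12 positive and 8 at an unadjusted p under 0.05. The 9 Schwann cell markers summed to 549.2 to 795.1 CPM in Celf1 AKO, against 344.3 to 425.0 CPM in Flox control, with 9 of 9 positive and all 9 at an unadjusted p under 0.05. The 8 tested neutrophil markers summed to 62.0, 45.2 and 159.7 CPM in Celf1 AKO 1, 2 and 3, against 25.9, 49.2 and 29.8 CPM in Flox control 1, 2 and 3. Of these, 8 of 8 were positive and 4 had an unadjusted p under 0.05 by edgeR. The sums of the adipocyte, neutrophil, preadipocyte, macrophage, smooth muscle, B and T cell and epithelial markers overlapped between the groups. Positive log2 fold changes were found for 2 of 10 preadipocyte and 2 of 9 macrophage markers. They were found for 5 of 7 tested smooth muscle and 4 of 6 tested B and T cell markers. The 4 tested epithelial markers were all positive, but summed to only 13.4, 3.42 and 3.53 CPM in Celf1 AKO 1, 2 and 3. In Flox control they summed to 1.33 to 3.68 CPM. Of the skeletal muscle list only Acta1 was in the table. By edgeR 0 genes of these lists were called, and DESeq2 called 3 endothelial and 5 Schwann cell markers. Of all tested genes, 6.75% were higher and 6.17% lower at an unadjusted p under 0.05 by edgeR, and DESeq2 called 2.97% of all genes.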

How the data were processed

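Raw counts per Ensembl gene, as whole numbers, and FPKM computed by the authors were deposited for 6 libraries. HISAT2, RSEM 1.3.1, GRCm38 and mm10 are named in the submitters' processing notes without their roles. Annotation, strandedness and the filter behind the gene table are not given in the sources. Library totals ran from 54835348 to 64979443 counts. Gene names, positions and 3′ UTRs came from GENCODE M21 on GRCm38, which matched 16528 identifiers and left 99 unmatched. The test was edgeR 4.0.16's quasi-likelihood test in R 4.3.3 (TMM, default filter, robust, genotype as the only term), with Benjamini-Hochberg adjustment. It covered all 16366 genes passing the filter. The same code was run on counts simulated independently for each library, which do not cover a library that stands apart from its group. SEs are the fold change over the root of F. Alternatives used DESeq2 1.42.0 and limma 3.58.1. Near-identical copies were found with BLAST 2.17.0. Genes given in every library are the 10 members of smallest p, the 4 of highest FPKM and 8 set ones, and in each related list the 2 of smallest p are named. The members and lists were chosen with earlier results of these data known.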

Additional observations from a re-analysis of the deposited data

How the results depend on the processing

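The number of splicing regulators called was 0 under every alternative run except without Celf1 AKO 3, so it ran from 0 to 1 over the libraries left out. Members at an unadjusted p under 0.05 numbered 3, then 0 to 9 with a library left out and 3 or 4 under the other scalings, filters and tools. Their median log2 fold change stayed between 0.06 and 0.10, and between 0.03 and 0.10 with a library left out. Over all genes, calls numbered 2, against 494 by DESeq2, 0 with library-size normalization, limma-voom or limma on log2(FPKM + 1) or log2(FPKM + 0.1), 1 without a minimum on FPKM, and 0 to 527 with a library left out; the cause was not tested. Deviations from the group mean correlated at r 0.071, -0.008 and 0.273 for same-numbered libraries, and at -0.352 to 0.299 for differently numbered ones. With 3 libraries per group these values cannot decide whether equal numbers mark pairs, and the main fit does not treat them as pairs. With the number as a replicate block, edgeR called 12 genes and 0 members. At an unadjusted p under 0.05, 6 members (16.7%) passed in that fit, beside 14.4% of all tested genes. Signs turned only where the log2 fold change was near 0. Hnrnpa2b1 was 0.0012 with RLE normalization and 0.00011 by DESeq2, and Hnrnph1 was -0.0011 in the limma fits on FPKM. With a library left out the ranges were -0.08 to 0.03 for Hnrnpa2b1, -0.05 to 0.09 for Hnrnph1, -0.10 to 0.02 for Hnrnpab, -0.08 to 0.01 for Hnrnpdl, -0.13 to 0.03 for Hnrnpf, -0.02 to 0.10 for Hnrnpll, -0.03 to 0.06 for Hnrnpm, -0.01 to 0.15 for Srsf3, -0.12 to 0.04 for Srsf7 and -0.06 to 0.16 for Rbm3. The lowest member count was 996. The 95% intervals hold the differences that the 3 libraries per group still allow, and these cannot be told apart here.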
